A study of Homo sapiens with 2 samples.

Results

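The enzymes that make serine, asparagine and folate-bound carbon units were examined in K562 cells with and without overexpression of PML4. The set holds 10 genes, whose annotation covers 27 of the 54613 human probe sets on the array. It comprises asparagine synthetase (ASNS), the serine synthesis enzymes PHGDH, PSAT1 and PSPH, the mitochondrial folate enzymes SHMT2, MTHFD2, MTHFD1L and ALDH1L2, and the cytosolic folate enzymes SHMT1 and MTHFD1. The genes were chosen by their place in the pathway, but with the difference between these same arrays already known, so every value below is a description. K562 is a human line established from chronic myeloid leukaemia in its blast phase. The control cells carried the empty retroviral vector pMSCV and the others a retrovirus for PML4, an isoform of the promyelocytic leukaemia protein. Both were kept in G418 for 3 weeks, and the labels do not say whether clones or mixed populations were grown. Each group holds 1 array, so no difference has a replicate error and none was tested.

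Serine is made from the glycolytic intermediate 3-phosphoglycerate in a chain of reactions carried out by PHGDH, PSAT1 and PSPH. Serine hydroxymethyltransferases then move a carbon from serine to tetrahydrofolate and release glycine, and the MTHFD enzymes pass that carbon on as formate for purine, thymidylate and methionine synthesis. The mitochondria and the cytosol each hold a version of this folate route, with SHMT2, MTHFD2, MTHFD1L and ALDH1L2 on the mitochondrial side and SHMT1 and MTHFD1 on the cytosolic side. ASNS makes asparagine from aspartate with glutamine as nitrogen donor. Several of these genes are known targets of ATF4, the transcription factor that responds to amino acid shortage and other stresses.

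Signals are MAS5 intensities, which are linear and scaled to a common mean on each array. They average over a culture, so fewer cells with a transcript and less of it per cell cannot be told apart. A probe set was taken as measured when it lay above a floor of 72.4, the median of all human probe sets, on at least 1 array. Lower signals were set to the floor value before log2 was taken, so a gene under the floor on 1 array has only a bound for its difference. A gene was represented by its brightest measured probe set annotated to it alone, and called when it differed by at least 2-fold. For scale, measured probe sets of 1 gene differed from each other by a median of 0.30 on the log2 scale, which is no measure of the error between cultures. The fraction of human probe sets above the floor was 51.9% for the control and 48.1% for PML4. Of 10 probe sets of PML itself, 9 were measured, 5 with a higher and 4 with a lower signal with PML4. At least 2-fold higher were 2 and at least 2-fold lower was 1, and the log2 differences ran from -2.57 to 2.83. The label is thus not borne out by all of them. Which of them can read the introduced PML4 transcript was not examined. Of 13 markers of the K562 programme 12 were measured, the other having no probe set of its own. Their summed signal was 40633.6 on the control and 52839.0 on the PML4 array. Most of the rise came from HBE1, at 18103.9 and 24540.1, and HBZ, at 1401.4 and 5465.5. The markers did not move together: HBZ, NFE2, HBE1, LMO2 and GATA1 were higher with PML4, at log2 differences of 1.96, 0.55, 0.44, 0.41 and 0.27. ALAS2, EPOR and TAL1 were lower, at -1.36, -1.06 and -0.53. The remaining measured ones, KLF1, ITGA2B, BCR and ABL1, were higher by at most 0.09. Of 18 markers of T cells, B cells, monocytes, fibroblasts and epithelium, 10 were measured and 7 lay under the floor on both arrays. Their summed signal was 22660.3 and 26159.8, most of it from EPCAM, KRT18, LYZ, CD3D and KRT19 in both groups. KRT19 and CD3D were higher with PML4, at log2 differences of 1.19 and 1.01, while DCN, CD3E and COL1A1 were lower, at -0.71, -0.55 and -0.50, the first and second of these being bounds. Under the floor were CD4, CD8A, MS4A1, CD14, COL1A2, COL3A1 and CDH1. The part of these markers in the differences below was not tested.

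Of the 10 enzymes 8 were measured by a probe set of their own, and 7 of the 8 had a lower signal on the PML4 array, as had 55.3% of all genes measured and 43.4% of those whose signal reached the 75th percentile. ALDH1L2, ASNS and PHGDH were at least 2-fold lower and none was at least 2-fold higher. Across the 12541 genes measured, 3.21% were called lower and 1.23% higher. Among the 3136 genes whose signal reached the 75th percentile of genes, where all of the measured enzymes but ALDH1L2 lie, 0.702% were called lower. PSAT1 also differed by more than 1.5-fold, which makes 4 of 8, against 11.8% of all genes that much lower. The median log2 difference of the 8 enzymes was -0.72, and that of all genes was -0.05. These shares come from the contrast with which the genes were proposed and are given without inference. Just inside the 2-fold line lay PHGDH, at a log2 difference of -1.19, and just outside it PSAT1, at -0.88.

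**Figure D1:**
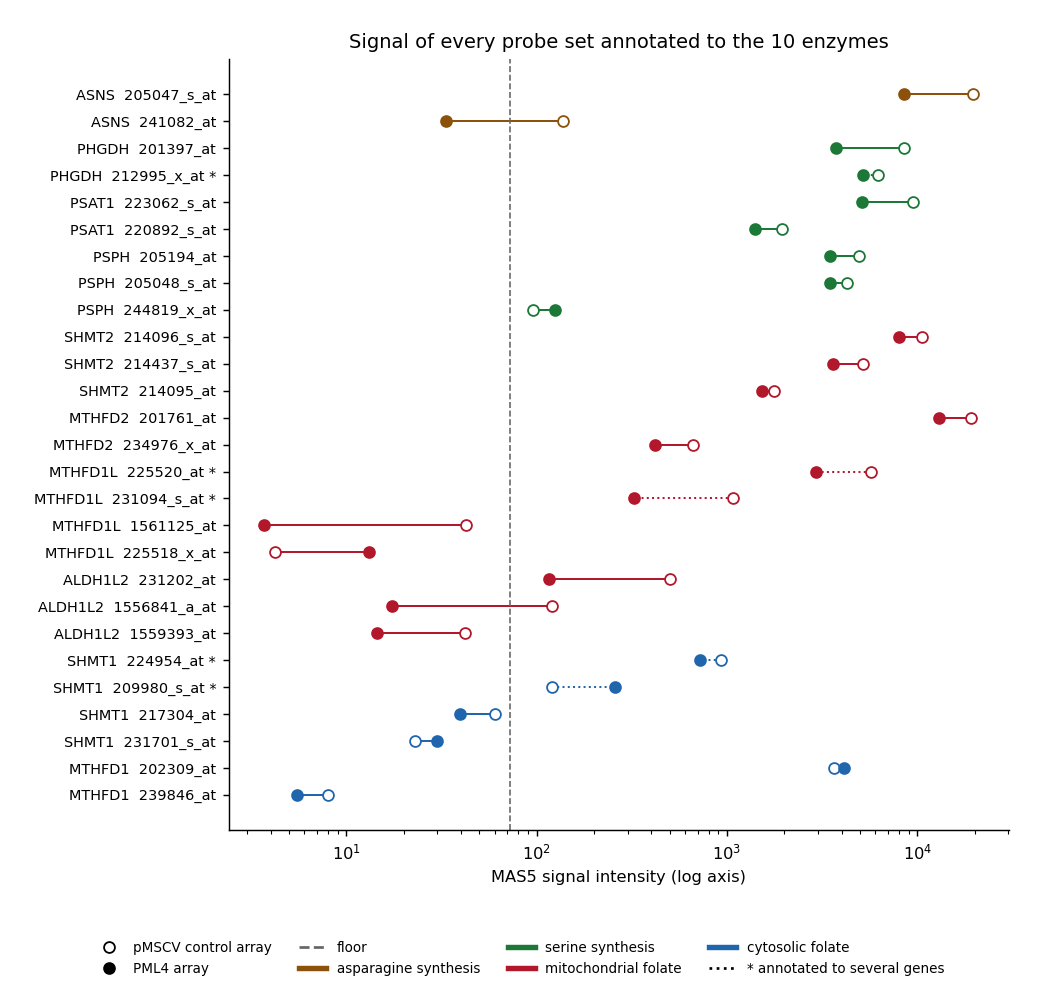
Signal of all 27 probe sets annotated to the enzymes, on a log axis, with the control array as open and the PML4 array as filled circles and the floor of 72.4 as a dashed line. Most filled circles lie to the left of their open partner, and the exceptions above the floor are 1 probe set each of PSPH, SHMT1 and MTHFD1.

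ASNS had a signal of 19694.7 in the control cells and 8509.4 with PML4. This is 2.31-fold lower, and 195th from the lowest among all genes measured. Its other probe set, 241082_at, read 136.6 and 33.3, at least 1.89-fold lower because the PML4 side lies under the floor. The control signal was the higher in both probe sets. The ASNS promoter is shown because it holds the letters of a C/EBP-ATF response element, the type of site through which ATF4 is known to act on this gene. The window runs from 250 bases before to 50 bases after the start in RefSeq's table for GRCh38.p14, at chr7:97872359-97872658 on the minus strand, with the match TGATGAAA in capitals, beginning 68 bases before the start.

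ASNS: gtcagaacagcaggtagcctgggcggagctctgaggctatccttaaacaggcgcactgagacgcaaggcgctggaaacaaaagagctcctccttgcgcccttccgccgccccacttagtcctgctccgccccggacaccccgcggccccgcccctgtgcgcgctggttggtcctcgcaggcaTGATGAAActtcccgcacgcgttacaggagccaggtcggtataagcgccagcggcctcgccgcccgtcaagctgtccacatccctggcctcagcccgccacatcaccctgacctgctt

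Promoter windows were listed for 7 of the 10 enzymes. None was listed for PSPH, SHMT2 and ALDH1L2 in the table used here, so these were not searched. The motif TGATGNAA, searched on both strands, was found in 4 of the 11 windows listed, which belong to ASNS and MTHFD1L. The matching windows of MTHFD1L overlap and share the same match, and the second ASNS window listed has none. Of all 35116 windows of this length in the table, 3.62% hold the motif. The windows of PHGDH, PSAT1, MTHFD2, SHMT1 and MTHFD1 did not hold these letters, which says nothing of the factors that act on them.

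The serine synthesis enzymes all had lower signals with PML4. By the probe set that stands for each gene, the difference was smaller at each step of the pathway. PHGDH, which oxidises 3-phosphoglycerate and opens the route, read 8490.6 in the control and 3724.2 with PML4, 2.28-fold lower. PSAT1, the aminotransferase of the middle step, read 9475.1 and 5150.2, 1.84-fold lower. PSPH, the phosphatase that releases serine, read 4946.0 and 3460.0, 1.43-fold lower. The log2 differences were thus -1.19, -0.88 and -0.52. The gaps between PHGDH and PSAT1 and between PSAT1 and PSPH are near the typical gap between probe sets of 1 gene. That between PHGDH and PSPH is larger.

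Other probe sets of these enzymes gave smaller differences. The second probe set of PSAT1 read 1933.5 and 1396.8, 1.38-fold lower. This is a smaller difference than the 1.43-fold of PSPH above, so the order by step depends on the probe sets used. For PSPH, 205048_s_at read 4289.3 and 3472.5, 1.24-fold lower, and the dim 244819_x_at read 95.9 and 124.2, 1.30-fold higher. A further probe set, 212995_x_at, is annotated to PHGDH together with MZT2A and MZT2B, which lie on another chromosome. It read 6236.5 and 5180.4, 1.20-fold lower, and is assigned to none of these genes. If it is counted for PHGDH it becomes the brightest probe set of the gene, and PHGDH is then at a log2 difference of -0.27 and not called. PHGDH then has the smallest difference of the serine synthesis enzymes.

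**Figure D2:**
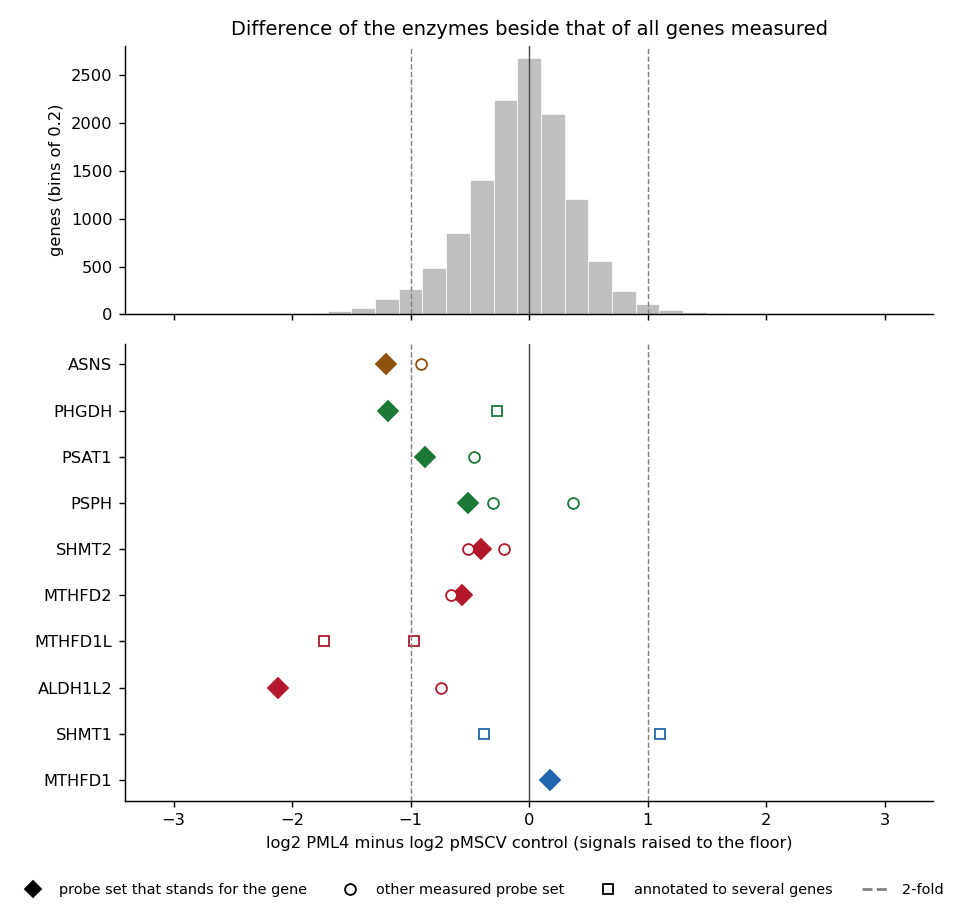
Log2 PML4 minus log2 control for all 12541 genes measured as a histogram, above the same difference for each measured probe set of the enzymes. Diamonds mark the probe set that stands for a gene, open circles its other probe sets, open squares those annotated to several genes and dashed lines 2-fold. The diamonds of 7 enzymes lie left of 0 and that of MTHFD1 lies right of it.

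The mitochondrial folate enzymes had lower signals in every measured probe set. SHMT2, which takes the first carbon from serine, read 10609.4 in the control and 7999.2 with PML4, 1.33-fold lower. Its other probe sets read 5168.2 and 3617.4, and 1769.9 and 1524.6, so all 3 were lower, by 1.16-fold to 1.43-fold. MTHFD2, the mitochondrial methylenetetrahydrofolate dehydrogenase and cyclohydrolase, read 19214.2 and 12939.4, 1.48-fold lower. Its dimmer probe set read 660.1 and 419.0, 1.58-fold lower, so both gave nearly the same difference.

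ALDH1L2, which oxidises formyl-tetrahydrofolate in mitochondria with formation of NADPH, had the largest difference of the set. It read 500.9 in the control and 115.5 with PML4, 4.34-fold lower and 14th from the lowest of all genes. A further probe set, 1556841_a_at, read 121.0 and 17.3, at least 1.67-fold lower, and 1559393_at stayed below the floor in either group, at 42.2 and 14.4. All 3 had the higher signal on the control array. ALDH1L2 is the dimmest of the measured enzymes, with 27.2% of genes at or below its mean signal. With the floor at the 75th percentile of probe sets, 465.0, its PML4 signal lies under the floor, and the bound is a log2 difference of -0.11.

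MTHFD1L, the mitochondrial formyltetrahydrofolate synthetase that releases formate, had no measured probe set of its own. Its own probe sets read 42.4 and 3.7, and 4.2 and 13.1, all under the floor. The bright probe sets 225520_at and 231094_s_at are annotated to MTHFD1L and to the transcribed pseudogenes LOC100996643 and LOC101928195 on another chromosome, and cannot be assigned to MTHFD1L alone. The first read 5726.6 in the control and 2924.0 with PML4, 1.96-fold lower, and the second 1079.7 and 325.2, 3.32-fold lower. The control array was higher in both. The first of the listed MTHFD1L promoter windows is shown because it holds TGATGNAA, as the ASNS window does. It lies at chr6:150866236-150866535 on the plus strand, and the capitals mark the E-box letters CACGTG, 154 bases before the start, and the match TGATGCAA, 129 bases before it. Of 4 windows listed for this gene, 3 overlap and hold the same match. TGATGCAA itself occurs in 0.866% of all windows.

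MTHFD1L: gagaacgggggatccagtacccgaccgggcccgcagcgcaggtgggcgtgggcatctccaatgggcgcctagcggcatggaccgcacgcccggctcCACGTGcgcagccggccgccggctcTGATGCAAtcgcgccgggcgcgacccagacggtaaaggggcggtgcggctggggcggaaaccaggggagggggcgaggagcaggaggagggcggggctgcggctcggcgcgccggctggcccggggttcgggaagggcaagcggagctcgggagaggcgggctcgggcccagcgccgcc

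The cytosolic folate enzymes did not have lower signals throughout. MTHFD1, the trifunctional cytosolic enzyme that joins the steps done in mitochondria by MTHFD2 and MTHFD1L, read 3650.7 in the control and 4131.3 with PML4, 1.13-fold higher. Its second probe set stayed below the floor in either group, at 8.0 and 5.5. The log2 difference of 0.18 is smaller than the typical gap between probe sets of 1 gene. The MTHFD1 promoter, at chr14:64388103-64388402 on the plus strand, is shown as that of the measured enzyme with a higher signal. It holds CACGTG, in capitals, 15 bases before the start, and no TGATGNAA. CACGTG occurs in 7.26% of all windows.

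MTHFD1: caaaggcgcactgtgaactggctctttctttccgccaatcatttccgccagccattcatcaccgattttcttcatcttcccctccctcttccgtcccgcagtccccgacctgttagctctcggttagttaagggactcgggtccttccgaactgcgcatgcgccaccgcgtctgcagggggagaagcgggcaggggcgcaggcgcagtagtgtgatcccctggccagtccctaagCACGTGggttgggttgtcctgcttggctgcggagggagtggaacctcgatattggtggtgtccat

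SHMT1, the cytosolic serine hydroxymethyltransferase, had no measured probe set of its own either. Its own probe sets read 60.0 and 39.5, and 22.8 and 29.8, on the control and PML4 arrays. A pair of brighter probe sets is annotated to SHMT1 and to MIR6778, a microRNA gene that lies inside SHMT1 in RefSeq's annotation. Of these, 224954_at read 934.9 and 719.9, 1.30-fold lower, and the dimmer 209980_s_at read 119.7 and 258.0, 2.16-fold higher. The probe sets that carry the name SHMT1 therefore differ in direction.

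In the contrast of compartments, the 3 mitochondrial enzymes with a probe set of their own had a median log2 difference of -0.57, between -2.12 and -0.41. The single cytosolic enzyme with one, MTHFD1, was at 0.18. Mitochondrial minus cytosolic was thus -0.75 on the log2 scale, a 1.68-fold gap. The ranges did not overlap, but 1 gene stands for the cytosolic side. When the probe sets shared with other loci were counted, 4 mitochondrial enzymes had a median of -0.77 and 2 cytosolic ones of -0.10, and mitochondrial minus cytosolic was -0.67. The ranges then ended close together, with SHMT2 at -0.41 on the mitochondrial side and SHMT1 at -0.38 on the cytosolic side. That gap is smaller than the typical gap between probe sets of 1 gene. With the floor at the 25th percentile of probe sets, 17.2, SHMT1 entered with its own probe set at -0.60 and the cytosolic median turned to -0.21. SHMT1 was then lower than SHMT2 and MTHFD2, so the ranges of the compartments overlapped. The related lists described below ran the other way. Their median was 0.03 for 6 other mitochondrial folate and glycine cleavage genes and -0.79 for 2 other cytosolic folate genes. The latter, ALDH1L1 and FTCD, are dim, and the value of FTCD is a bound. The gap is thus one between the listed enzymes and not between all genes of each compartment.

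Over all 27 probe sets annotated to the enzymes, 21 were measured, 18 of them lower and 3 higher with PML4. At least 2-fold lower were 4, of ASNS, PHGDH and ALDH1L2 and 1 shared by MTHFD1L, and at least 2-fold higher was 1, shared by SHMT1. Of all 29370 measured probe sets, 3.22% were at least 2-fold lower and 1.3% at least 2-fold higher.

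The pathways around these enzymes were read from 9 lists with 92 genes, of which 72 were measured. In all, 47 had a lower and 25 a higher signal, 7 were at least 2-fold lower and none at least 2-fold higher, and the median log2 difference was -0.15. These directions are those of the brightest probe sets. For some genes counted as higher, and some counted as lower, most measured probe sets go the other way. Of all genes measured 55.3% were lower, 3.21% at least 2-fold lower and 1.23% at least 2-fold higher. At 1.5-fold, 12 of the 72 were lower and 3 higher, against 11.8% and 5.7% of all genes, and at 3-fold 3 were lower, against 0.47%. Without the list of ATF4 pathway regulators, 56 genes were measured, 35 lower and 21 higher, with a median of -0.14. At 1.5-fold 5 of the 56 were lower and 3 higher, where 11.8% and 5.7% of all genes lay. Of the 3 genes 3-fold lower, ATF5 and DDIT3 are regulators and ASS1 is not. The lower calls among those 56 were AMT, FTCD, CTH and ASS1. Both medians lie nearer to that of all genes than the median of the listed enzymes does.

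**Figure D3:**
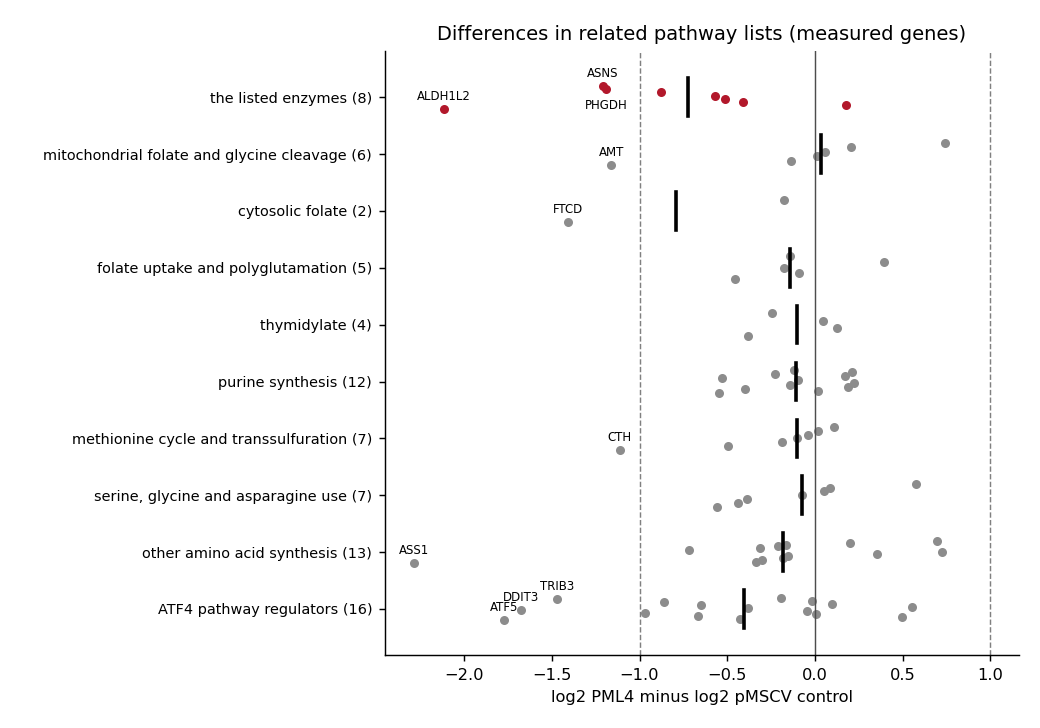
Log2 PML4 minus log2 control of each measured gene in the listed enzymes (red) and in 9 related lists (grey), with the number of measured genes in brackets, list medians as black bars and dashed lines at 2-fold. Medians were -0.72 for the listed enzymes, -0.41 for the ATF4 pathway regulators and -0.79 for the 2 cytosolic folate genes, and those of the other lists lay between -0.18 and 0.03.

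Other mitochondrial folate and glycine cleavage genes did not have lower signals as a list. Of 6 measured, 2 were lower and 4 higher, against 55.3% of all genes lower, with a median log2 difference of 0.03. AMT, the aminomethyltransferase of the glycine cleavage system, read 376.7 on the control and 168.4 on the PML4 array, 2.24-fold lower. The bright members of the same system, DLD at 9887.9 and 9961.1 and GCSH at 8091.5 and 8417.8, differed by 1.01-fold and 1.04-fold. MTHFD2L, a paralog of MTHFD2 named here after its value was seen, read 1467.1 and 2450.9, 1.67-fold higher, although 5 of its 7 measured probe sets were lower.

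Of the other cytosolic folate genes 2 were measured. ALDH1L1, the cytosolic paralog of ALDH1L2, read 125.0 and 110.7, 1.13-fold lower. FTCD, an enzyme of histidine breakdown, read 192.1 in the control and 62.6, below the floor, with PML4, which is at least 2.65-fold lower. For folate uptake and polyglutamation 4 of 5 genes were lower and none was called, against 55.3% of all genes lower and 3.21% called lower. The brightest were FOLR1, a folate receptor, and GGH, a hydrolase of folate polyglutamates. They read 1888.9 and 2479.0, and 2743.1 and 2579.9.

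Genes of thymidylate and purine synthesis, which take up folate-bound carbon, held no call. Of all genes measured, 55.3% were lower, 3.21% called lower and 1.23% called higher. With such shares, the lack of a call in lists this short says little of these genes. None of 4 thymidylate genes was called, and the brightest, TYMS, thymidylate synthase, at 18813.2 and 19436.1, and DUT, a dUTPase, at 14978.5 and 16316.7, were 1.03-fold and 1.09-fold higher. None of 12 purine synthesis genes was called, with 7 lower, 5 higher and a median of -0.11. The brightest were IMPDH2, an enzyme of guanine nucleotide synthesis, at 10419.2 and 7126.5, 1.46-fold lower, and PAICS, at 11282.7 and 9618.7, 1.17-fold lower. Of 7 genes of the methionine cycle and transsulfuration 5 were lower. CTH, the transsulfuration enzyme that makes cysteine from cystathionine, was the only call of this list. Its brightest probe set read 4558.5 and 2106.4, 2.16-fold lower, and both of its measured probe sets were lower. The brightest of the list, MAT2A and MAT2B, subunits of the enzyme that makes S-adenosylmethionine, read 7846.4 and 7641.8, and 5045.4 and 5440.7.

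Enzymes that use serine, glycine or asparagine held no call, with 4 of 7 lower, against 55.3% of all genes lower and 3.21% called lower. The brightest were SPTLC1, a subunit of serine palmitoyltransferase, and GCAT, which cleaves a product of threonine breakdown. They read 7463.2 and 7909.3, and 1314.5 and 1007.0. Of 13 genes for the synthesis of other amino acids 9 were lower and 4 higher. ASS1, argininosuccinate synthase, read 2257.0 and 462.3, 4.88-fold lower by 1 probe set. GLUL, glutamine synthetase, at 25550.2 and 22087.9, and BCAT1, a branched-chain aminotransferase, at 11746.6 and 10365.9, were 1.16-fold and 1.13-fold lower.

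The ATF4 pathway regulators had a median log2 difference of -0.41, with 12 of 16 lower and 3 called, against 55.3% of all genes lower and 3.21% called lower. ATF4 read 18865.1 on the control and 12011.1 on the PML4 array, 1.57-fold lower. The calls were the transcription factors ATF5, at 2097.6 and 613.8, 3.42-fold lower, and DDIT3, at 4580.0 and 1435.9, 3.19-fold lower, and the pseudokinase TRIB3, at 12036.6 and 4349.6, 2.77-fold lower. MYC, a transcription factor that also acts on genes of serine and folate metabolism, read 14094.9 and 13954.5, a 1.01-fold difference. The kinases EIF2AK1 to EIF2AK4, which act upstream of ATF4, were not called. Whether the regulators bear on the enzymes' differences was not tested.

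**Figure D4:**
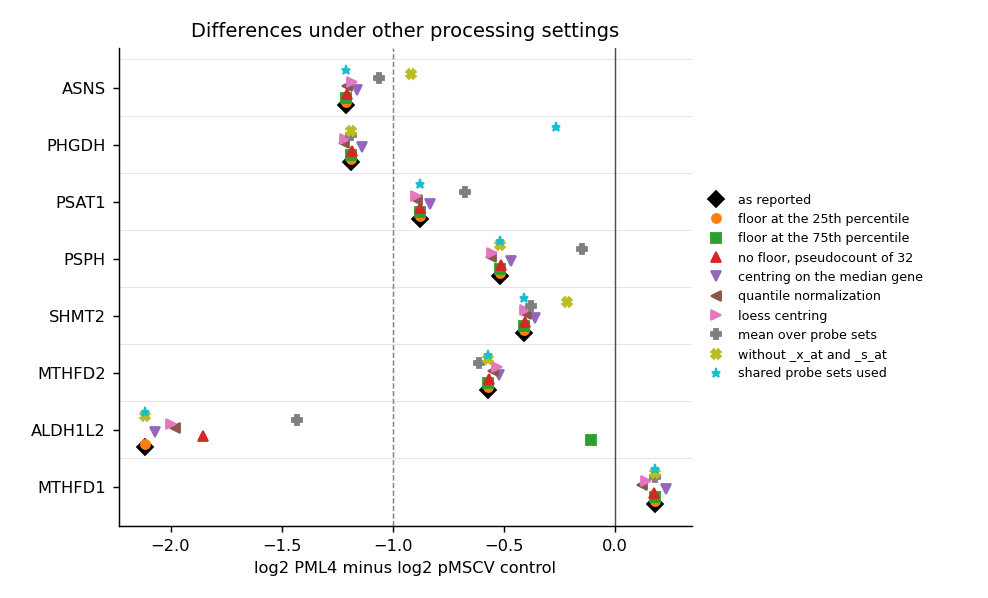
Log2 PML4 minus log2 control of the 8 measured enzymes as reported (black diamond) and under 9 other settings, with dashed line at 2-fold lower. Each enzyme kept its side of 0 under all of its settings, and the widest spread is that of ALDH1L2, between -2.12 and -0.11.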

How the data were processed

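Expression was measured on 2 one-colour Affymetrix arrays, 1 per group, with 6 µg of RNA per array. Per the submitters' processing notes each probe set was summarised with MAS5. The authors deposited linear signal intensities. After trimming 2% of probe sets at each end, the arrays had means of 500.0 (control) and 500.1 (PML4). The version of MAS5 is not given in the sources used here, nor are its settings.

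GEO's annotation of the array gave 1 gene for 41091 human probe sets, several for 1801 and left 11721 unnamed here. Each of the 10 enzymes matched a current gene by Entrez identifier in RefSeq's GRCh38.p14. No coordinates of probe sets are given. The arrays were used as scaled, in Python 3.11.15 with pandas 2.3.3 and statsmodels 0.14.6. The procedure was checked on simulated data with large differences in bright genes. That check does not cover smaller differences or dim genes. With 1 array per group no test was made. All enzymes and probe sets are named. From each related list, genes at least 2-fold different, at most 4, and the 2 brightest are named. MTHFD2L and the kinases EIF2AK1 to EIF2AK4 are named outside this rule. Members and lists were chosen with earlier results of these data known. The number of arrays limits the precision.

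The other settings tried were a floor at the 25th or 75th percentile, a pseudocount of 32 in place of the floor, centring of all genes on their median, quantile normalization, loess centring (span 0.4), a gene's mean over its probe sets, exclusion of the _x_at and _s_at probe sets, and a call size of 1.5-fold or 3-fold. Counting shared probe sets was added after the data were seen.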

Additional observations from a re-analysis of the deposited data

How the results depend on the processing

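The 7 lower enzymes and MTHFD1 kept their direction under every setting that gave a value. PSAT1 had none when _x_at and _s_at probe sets were excluded, because it has no others. The number of enzymes at least 2-fold lower was 3, between 2 and 4 with other floors, scalings or probe sets, and 1 with calls at 3-fold. The mitochondrial median moved to -0.94 and the cytosolic to -0.21 under the lower floor (25th percentile), which admits MTHFD1L and SHMT1 by dim probe sets. The serine synthesis median moved to -0.52 with shared probe sets counted. Mitochondrial minus cytosolic lay between -0.79 and -0.59 under the planned settings. In all of these but the lower floor, MTHFD1 alone stood for the cytosolic side. The range therefore says little of other cytosolic enzymes. The mean over probe sets gave -1.43 for ALDH1L2 and -0.15 for PSPH. ASNS was at -0.92, under 2-fold, when _x_at and _s_at probe sets were excluded, where a dim probe set with 1 side at the floor stands for it. The related lists held 12 lower and 3 higher genes at 1.5-fold, where 11.8% and 5.7% of all genes lay. Without the ATF4 pathway regulators, these were 5 lower and 3 higher of 56. At 3-fold the lists held 3 lower genes, where 0.47% of all genes lay. Across all genes the median shifted by under 0.1 between scalings. Lower genes made up 72.3% of all calls as deposited, 77.5% with the pseudocount, 74.99% under the lower floor, 65.0% after centring, 58.9% after quantile normalization, 60.1% after loess centring and 55.8% under the higher floor (75th percentile). No paired analysis was possible because each group holds 1 array. The signals of own probe sets of MTHFD1L and SHMT1 are too near background to give their levels.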
